A study of Mus musculus with 31 samples.

Results

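The genes described here encode the nuclear subunits of the mitochondrial respiratory chain and of ATP synthase. They were taken by name: symbols beginning Nduf followed by a, b, c, s or v and a digit, Sdha to Sdhd, and symbols beginning Uqcr, Cox4 to Cox8 or Atp5. This gave 84 genes of 24062 in the P10 and 8-week files and the same 84 of 24322 in the culture files. Of these, 73 are structural subunits: 35 of complex I, 4 of complex II, 8 of complex III, 11 of complex IV and 15 of complex V. Another 9 are other forms or relatives of complex IV subunits, and 2 (Atp5s and Atp5sl) carry the name but are not structural subunits. Most of the 9 are restricted to some tissues, but Cox7a2l, a supercomplex factor, was above 0 in every library. So was Cox4i2, though its lowest culture value was 0.226 TPM, against 441 TPM for Cox7a2l. The rule does not reach Cyc1 of complex III, Ndufab1 of complex I or the subunits encoded in mitochondrial DNA, and it used no expression value.

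Complex I passes electrons from NADH, and complex II from succinate, to coenzyme Q. Complex III hands them on to cytochrome c, complex IV to oxygen, and complex V uses the resulting proton gradient to make ATP. Complexes I, III, IV and V combine nuclear and mitochondrial gene products, whereas complex II is encoded wholly in the nucleus and also works in the citric acid cycle. In the brain, quiescent neural stem cells are known to rely more on glycolysis and lipid oxidation, and their neuronal offspring more on oxidative phosphorylation.

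RNA was sequenced in 21 libraries, 3 in each of 7 groups. Nestin-EGFP mice carry a Nestin transgene that labels neural stem cells and their progeny, and EGFP-positive cells of their dentate gyrus were sorted. Control P10 and Control 8w mice received water and MDZ P10 and MDZ 8w mice midazolam (MDZ, a benzodiazepine) at 10 mg/kg on postnatal days 7 to 9. RUN MDZ 8w mice received midazolam and had a running wheel, and no group of runners without midazolam was among the samples used. Cells were taken at day 10 (P10, 50000 cells of 1 mouse a library) or at 8 weeks (about 30000 cells pooled from 3 to 5 mice a library). Control culture and Egr1 culture were neural stem cells begun from embryonic day 11 tissue and passaged over 20 times. Both carried a lentivirus for the M2rtTA transactivator, and Egr1 culture also one for Flag-tagged Egr1, a zinc finger transcription factor. Nothing says that the culture libraries came from separate cultures, so their p-values may measure technical spread only.

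P10 values were FPKM and the others TPM, both per length, and the 3 tables were never tested against each other. The 8-week libraries did not vary alike: Control 8w libraries held 11163 to 11397 genes above 0, MDZ 8w libraries 15382 to 16709 and RUN MDZ 8w libraries 15568 to 15906. Control 8w replicates 2 and 3 differed by a median of 0.13 (log2) over the 73 subunits and by more than 2-fold for none of them. Replicate 1 differed from them by a median of 0.67 and 0.70, and by more than 2-fold for 25 and 22 subunits. On the subunits alone, MDZ 8w replicates 1 and 3 were closer still, at a median of 0.12. Over genes of 20 to 50 TPM, however, Control 8w replicates 2 and 3 differed with a robust SD of 0.26 (log2). Every other 8-week pair had 0.34 or more. They also shared 97.4% of detected genes, against at most 90.0% for any other pair. Control 8w replicates 2 and 3 were therefore averaged and counted as 1 sample, so Control 8w had n = 2. In the sorted cells, radial glia and astrocyte markers (8 genes) summed to 2438 to 3085 FPKM at P10 and 2106 to 4668 TPM at 8 weeks, and oligodendrocyte markers (6 genes) were also present at 1105 to 2473 FPKM and 187 to 3575 TPM. Libraries of bulk cells do not separate fewer cells of a type from less RNA per cell.

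Promoters were read for 69 of the 84 genes from RefSeq (GRCm38.p6) and searched on both strands over 300 bases, 250 before and 50 after the start, for the letters of 4 factors. NRF1, named for its regulation of respiratory genes and searched as GCGC and TGCGC with any 1 base between, matched 17 of 69 (24.6%), against 7.17% of 17492 protein-coding genes. The ETS core CCGGAAG, which GABP binds, matched 16 (23.2%, against 13.0%). YY1 (AANATGGCG) matched 11 (15.9%, against 3.64%). EGR1 (GCGNGGGCG) matched 2, Atp5g2 and Atp5j (2.90%, against 8.51%). The 69 genes had 75 windows, since some have several starts, and 57 of these end at the outer edge of the annotated gene and 18 at another start. A match is only a match of letters, and no binding was measured here. The 250 bases before the start are shown for 6 genes, with matches in capitals. Sdha (chr13:74350241-74350490, minus strand) and Sdhd (chr9:50603850-50604099, minus strand) are genes of complex II. Ndufa1 (chrX:37191239-37191488, minus strand) was the one gene that passed between the running and sedentary groups. Cox6a1 (chr5:115348959-115349208, minus strand) and Cox5b (chr1:36691237-36691486, plus strand) passed in culture in opposite directions. Atp5g2 (chr15:102671048-102671297, minus strand) holds the EGR1 letters at its end.
Sdha: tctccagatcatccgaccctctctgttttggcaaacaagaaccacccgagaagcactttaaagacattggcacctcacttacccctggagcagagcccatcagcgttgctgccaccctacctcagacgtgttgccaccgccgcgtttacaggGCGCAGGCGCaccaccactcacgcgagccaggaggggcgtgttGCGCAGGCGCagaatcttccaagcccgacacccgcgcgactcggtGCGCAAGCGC
Sdhd: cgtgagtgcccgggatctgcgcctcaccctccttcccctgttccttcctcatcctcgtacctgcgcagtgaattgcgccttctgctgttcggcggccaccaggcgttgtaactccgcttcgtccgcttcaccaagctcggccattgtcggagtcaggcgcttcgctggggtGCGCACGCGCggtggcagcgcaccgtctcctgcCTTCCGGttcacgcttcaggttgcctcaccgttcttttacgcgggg
Ndufa1: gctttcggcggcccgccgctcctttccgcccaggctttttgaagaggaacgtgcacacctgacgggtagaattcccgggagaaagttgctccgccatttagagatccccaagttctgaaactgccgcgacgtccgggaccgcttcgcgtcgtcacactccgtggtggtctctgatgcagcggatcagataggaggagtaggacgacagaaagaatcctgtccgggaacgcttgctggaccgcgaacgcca
Cox6a1: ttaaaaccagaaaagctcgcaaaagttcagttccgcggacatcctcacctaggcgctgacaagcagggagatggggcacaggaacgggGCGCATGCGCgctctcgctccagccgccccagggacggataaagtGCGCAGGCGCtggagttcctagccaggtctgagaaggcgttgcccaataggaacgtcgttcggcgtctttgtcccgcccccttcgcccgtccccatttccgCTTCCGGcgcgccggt
Cox5b: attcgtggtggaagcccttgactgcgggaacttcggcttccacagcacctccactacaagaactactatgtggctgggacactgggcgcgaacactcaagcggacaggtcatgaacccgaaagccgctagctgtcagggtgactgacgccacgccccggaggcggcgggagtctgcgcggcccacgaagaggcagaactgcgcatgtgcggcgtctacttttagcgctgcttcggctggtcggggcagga
Atp5g2: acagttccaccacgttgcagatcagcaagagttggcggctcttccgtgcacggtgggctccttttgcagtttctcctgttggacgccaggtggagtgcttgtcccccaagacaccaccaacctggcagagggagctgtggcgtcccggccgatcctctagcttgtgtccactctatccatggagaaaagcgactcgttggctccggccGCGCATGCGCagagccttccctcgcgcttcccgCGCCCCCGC
In capitals, Sdha has 3 NRF1 matches, Sdhd an NRF1 and an ETS match, Cox6a1 2 NRF1 matches and an ETS match, and Atp5g2 an NRF1 and an EGR1 match. Ndufa1 and Cox5b have none of the 4 in this window.

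Among the 73 subunit genes, those of complex IV stood highest in 20 of 21 libraries by the median over subunits, and complex II did in RUN MDZ 8w replicate 1. At P10 the median level over subunits was 79.5 to 106 FPKM for complex IV, 73.1 to 86.4 for complex III, 53.7 to 64.0 for complex V, 56.0 to 62.0 for complex II and 38.5 to 44.7 for complex I (lowest and highest of 6 libraries). Complex IV was above complex III and complex I was lowest in 6 of 6 libraries, while complexes II and V overlapped and changed places between libraries. At 8 weeks the ranges over 9 libraries were 232 to 436 TPM for complex IV, 200 to 357 for V, 194 to 327 for III, 143 to 244 for II and 134 to 196 for I, and these overlapped. In culture complex IV was at 1305 to 1503 TPM, V at 853 to 965, III at 793 to 881, I at 360 to 406 and II at 351 to 388. There, neighbours III and V overlapped, as did I and II. Summed, the 84 genes took 1.95% to 2.22% of all FPKM at P10, 1.59% to 2.53% of TPM at 8 weeks and 5.21% to 5.86% in culture. As a description across genes, the subunits' mean levels had a Spearman correlation of 0.94 between P10 and 8 weeks, 0.80 between P10 and culture and 0.77 between 8 weeks and culture.

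**Figure D1:**
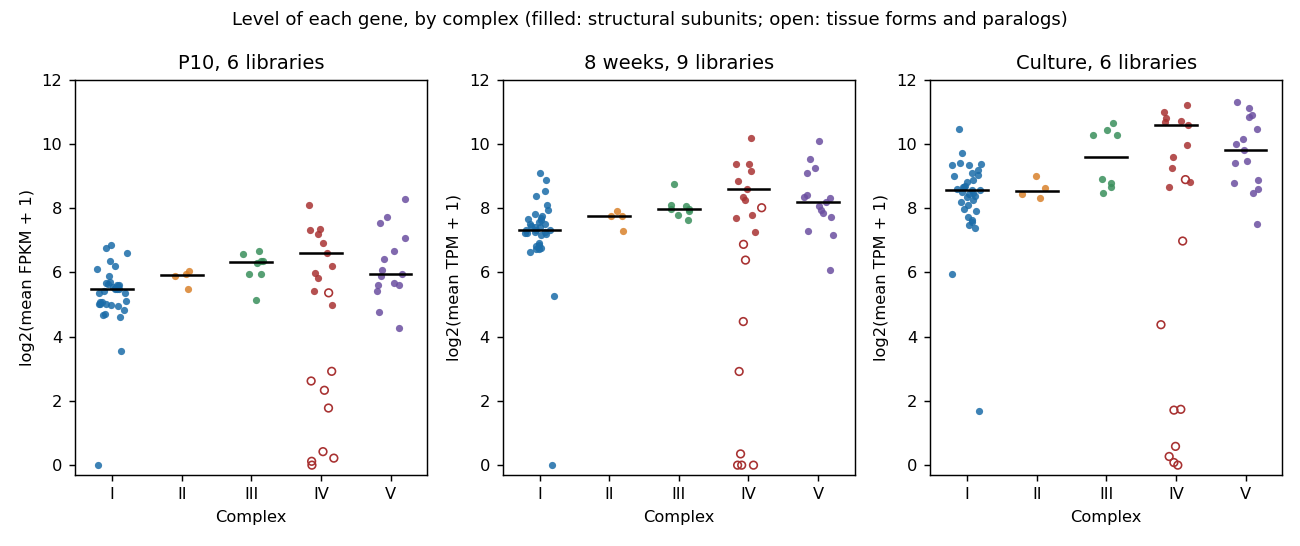
Mean level of each gene over the libraries of a table, as log2(value + 1), by complex. Bars mark the median of the structural subunits (filled), and open points are the other forms and relatives of complex IV subunits. Complex IV has the highest median in each of the 3 tables, and most open points lie far below the subunits.

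The highest gene of each complex was nearly the same in the 3 tables. Cox4i1, the main form of a complex IV subunit that binds ATP, averaged 273 FPKM at P10, 1168 TPM at 8 weeks and 2362 TPM in culture. Atp5b, the catalytic beta subunit of ATP synthase, averaged 308 FPKM, 1081 TPM and 2544 TPM. Uqcrh, the hinge protein of complex III, led its complex at 100.1 FPKM, 430 TPM and 1626 TPM, and Sdhc, a membrane anchor of complex II, led at 64.5 FPKM, 239 TPM and 514 TPM. Complex I differed: Ndufa3 led at P10 (114 FPKM) and in culture (1401 TPM), and Ndufc2 at 8 weeks (550 TPM). Atp5g1, 1 of 3 genes for the same c-ring protein, was the lowest of complex V at 18.3 FPKM, 66.5 TPM and 182 TPM, below Atp5g2 (42.1 FPKM at P10) and Atp5g3 (212 FPKM at P10). Uqcrb was lowest of complex III in the sorted cells (34.1 FPKM and 196 TPM) and Uqcrc2 in culture (356 TPM). Sdhd was lowest of complex II in the sorted cells (44.0 FPKM and 155 TPM) and Sdha in culture (320 TPM).

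At P10 the genes of catalytic parts were close among libraries. Ndufs1, which carries iron-sulfur clusters of complex I, lay at 26.4 to 29.2 FPKM over the 6 P10 libraries, and Ndufv1, which holds its NADH site, at 45.8 to 50.7 FPKM. Uqcrfs1, the Rieske iron-sulfur protein, lay at 56.0 to 67.7 FPKM and Atp5a1, the alpha subunit, at 176 to 190.5 FPKM. Ndufs5 was listed at 0 in 5 of 6 P10 libraries and in 9 of 9 at 8 weeks, and at 13.3 TPM in Control culture replicate 1 but at most 0.007 TPM in the other 5 culture libraries. A complex I subunit at 0 beside 34 abundant ones may be a failed estimate. It was kept as 1 low value in the complex I medians and in the correlations above.

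Where complex IV has a common and a restricted form, the common form prevailed. Cox6a1 averaged 163 FPKM at P10, while Cox6a2, the heart and muscle form, averaged 0.09 FPKM and was at 0 in 9 of 9 libraries at 8 weeks. Cox8a averaged 121 FPKM, against 0.16 for Cox8b and 0 for Cox8c. Cox7a2 averaged 62.2 FPKM, Cox7a2l (a supercomplex factor) 40.2 and Cox7a1 2.43. Cox6b2, the testis form, averaged 5.15 FPKM at P10, where Cox6b1 stood at 159 FPKM. In culture it averaged 125 TPM, where Cox6b1 stood at 2054 TPM. Cox4i2 and Ndufa4l2, both known from vessel-wall cells and oxygen shortage, averaged 4.03 and 6.57 FPKM at P10 and at most 0.50 TPM in culture. In the 8-week libraries Cox4i2 ran from 9.56 to 315 TPM and Ndufa4l2 from 34.4 to 275 TPM.

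One day after the last of 3 midazolam injections, no subunit gene passed the test. At an adjusted p below 0.05 (limma on log2(value + 1), Benjamini-Hochberg over 12914 genes) 0 of 79 tested members passed, and 6 had an unadjusted p below 0.05, as did 1575 of all 12914 genes. The background of adjusted calls was 1 gene called, 0.00774%. The median change of subunits was 0.01 for complex I, -0.04 for II, 0.03 for III, 0.02 for IV and -0.01 for V, beside 0.01 over all genes. The groups did not overlap for 6 members, all higher after midazolam, against a background of 12.2% of genes higher and 6.61% lower.

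Atp5j2, the f subunit in the membrane part of ATP synthase, was at 44.9, 50.6 and 49.0 FPKM in Control P10 and at 92.5, 86.4 and 74.0 in MDZ P10. Every treated library lay above every control, by 0.79 ± 0.09 (SE) on the log2 scale, yet the adjusted p was 0.062. It passed without Control P10 replicate 2 (adjusted p = 0.0215, limma) or without MDZ P10 replicate 3 (adjusted p = 0.0466, limma), and under 5 of 14 alternatives in all (0.0215 to 0.480). Cox8a, a small complex IV subunit, was at 110, 100.1 and 105 FPKM in controls and 147, 142 and 123.4 after midazolam (0.38 ± 0.08, adjusted p = 0.215, limma). Here too the groups did not overlap. Cox6b2 had 4.71, 4.64 and 4.09 FPKM against 5.55, 5.87 and 6.02 (0.32 ± 0.07, adjusted p = 0.215, limma). The other 3 that did not overlap were Ndufs7, an iron-sulfur subunit (0.26), Ndufa11 (0.17) and Uqcrc1, a core protein (0.15). The largest negative values, for Cox7a1 (-0.26), Atp5k (-0.23) and Ndufb3 (-0.17), came from groups that overlapped.

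**Figure D2:**
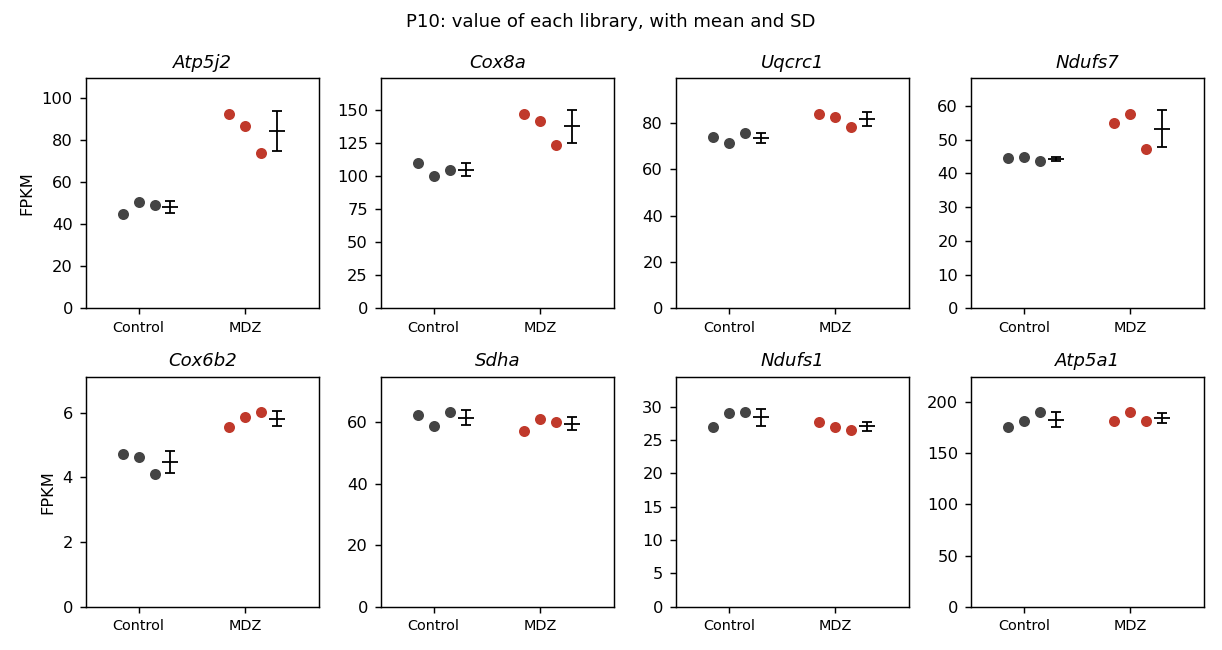
FPKM of 8 genes in each P10 library (points) with group mean and SD (n = 3). Atp5j2 and Cox8a are higher in all 3 MDZ libraries, while Sdha and Atp5a1 overlap.

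Other mitochondrial lists were as quiet at P10. No gene of the assembly factors, citric acid cycle, carriers, coenzyme Q synthesis, regulators of mitochondrial number, mitochondrial ribosome or import passed. The medians of these lists lay between -0.05 and 0.09. Summed pericyte and smooth muscle markers were 237 to 269 FPKM in controls and 206 to 220 after midazolam, with none of 9 at 0, and their part in these values was not tested.

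At 8 weeks, 4 of 79 members were higher in MDZ 8w than in Control 8w and none lower, against a background of 5.13% of 15264 genes called (4.68% higher, 0.452% lower). Atp5g3, a c-ring gene of ATP synthase (chr2:73908447-73912464), was at 340, 197 and 177 TPM in the Control libraries and at 810, 977 and 800 in MDZ. All 3 treated libraries exceeded all controls, and the change was 1.76 ± 0.25 (SE, adjusted p = 0.0082, limma). Uqcr10, a small subunit of complex III, was at 128, 101 and 97.4 TPM against 370, 450 and 364 (1.79 ± 0.26, adjusted p = 0.0088, limma). Uqcr10 overlaps another annotated gene, so its reads may be shared. Neither moved out of the called set when any single library was left out, though both did with library quality weights (adjusted p = 0.181 and 0.303, limma).

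The other 2 were near or at 0 in controls. Atp5s was listed at 0 in 3 of 3 Control libraries and at 28.0, 13.8 and 19.2 TPM in MDZ (adjusted p = 0.0045, limma). Ndufb6, an accessory subunit of complex I, was at 0, 25.98 and 26.6 TPM against 210, 242 and 201 (adjusted p = 0.0366, limma). Its fitted change of 5.38 became 3.0 without Control 8w replicate 1, and the call was lost without any 1 of the 6 MDZ or RUN MDZ libraries (highest adjusted p = 0.132, limma). Ndufb2, which behaved alike at 0, 34.5 and 45.2 against 234, 216 and 259 TPM, missed the threshold (adjusted p = 0.065, limma). Cox6b2 was listed at 0 in the 3 controls and at 20.4 to 31.5 TPM in MDZ (adjusted p = 0.133, limma). These low controls come from the libraries with the fewest genes above 0, and the part of that in the result was not tested.

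The complexes had medians near that of all genes. Median changes were 0.21 for complex I, 0.42 for II, 0.35 for III, 0.19 for IV and 0.31 for V, against 0.36 over all genes and 0.04 over the 1388 genes at or above the members' lower quartile of level. Without Control 8w replicate 1 the medians became 0.0047 for complex I, 0.50 for II, 0.15 for III, -0.05 for IV and 0.04 for V. Groups did not overlap for 25 members higher and 10 lower, against 27.8% and 11.3% of all genes. The largest negative values were those of Cox4i2 (315, 97.9 and 88.2 against 27.1, 29.0 and 37.1 TPM; -2.44, adjusted p = 0.158, limma) and Ndufa4l2 (275, 145 and 162 against 34.4, 64.9 and 71.6 TPM; -1.90, adjusted p = 0.064, limma). For both genes the MDZ libraries lay below every control. Both overlap other annotated genes (Gm32057 and Bcl2l1 for Cox4i2, Shmt2 for Ndufa4l2), so their reads may be shared. Pericyte and smooth muscle markers, with none of 9 at 0, had sums of 2427 to 3799 TPM in Control 8w, 871 to 1439 TPM in MDZ 8w and 2356 to 3454 TPM in RUN MDZ 8w. Much of these sums was Vtn, which averaged 2263 TPM in Control 8w and 680 in MDZ 8w. The part of pericytes and smooth muscle in the values of Cox4i2 and Ndufa4l2 was not tested.

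**Figure D3:**
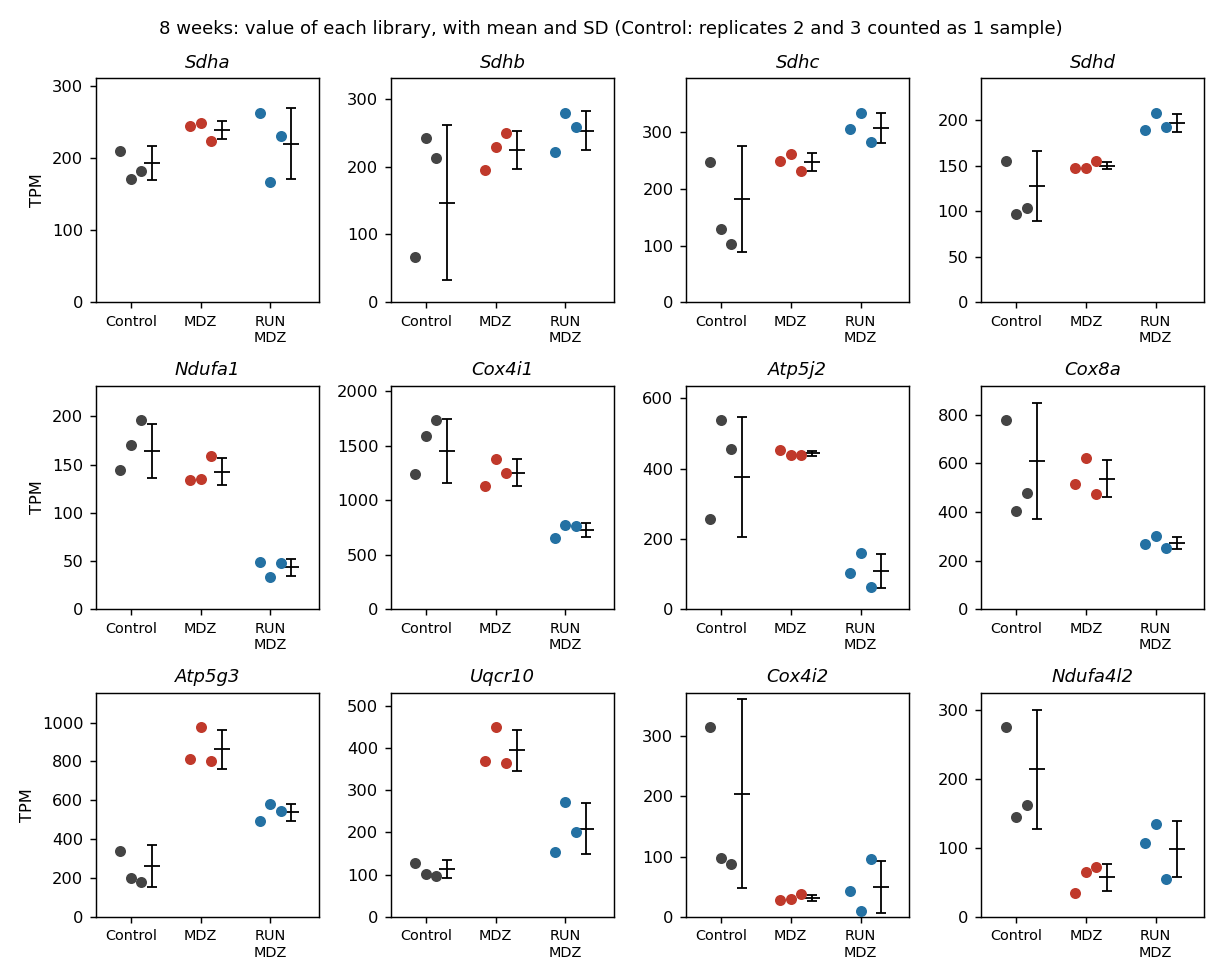
TPM of 12 genes in each 8-week library (points), with group mean and SD; Control replicates 2 and 3 count as 1 sample. Sdhc and Sdhd are highest in RUN MDZ, whereas Ndufa1, Cox4i1, Atp5j2 and Cox8a are lowest there.

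Between RUN MDZ 8w and MDZ 8w, most subunits of complexes I, III, IV and V had lower values in runners, and 3 of the 4 of complex II had higher ones, though 1 gene alone passed the test. Values were negative for 34 of 34 tested complex I subunits (median -0.49), 7 of 8 of complex III (-0.55), 11 of 11 of complex IV (-0.65) and 14 of 15 of complex V (-0.39). Complex II had 3 of 4 positive (median 0.24). Over all genes the median was 0.05 with 46% negative, and over the 1388 genes at the members' level it was -0.11 with 62.4% negative. Groups did not overlap for 37 of 79 members that were lower (background 10.5%) and for 2 that were higher (background 14.4%). Among the 1388 genes at the members' level, 345 were lower without overlap and 140 higher. Single genes seldom passed: 1 of 79 members was called, lower, where 0.157% of all genes were called (0.0524% higher, 0.105% lower). Whether complex II differed from the other complexes was not tested. The signs of the 5 medians held whichever single library was left out.

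Ndufa1, a small accessory subunit of complex I encoded on the X chromosome (chrX:37187588-37191238, overlapping Rnf113a1), was the gene that passed. It was at 134, 136 and 159 TPM in MDZ and 49.2, 33.2 and 48.1 in RUN MDZ, a change of -1.71 ± 0.22 (SE, adjusted p = 0.0435, limma). The 3 runner libraries lay far below the other 6 at this age. Leaving out any 1 of the 6 MDZ or RUN MDZ libraries lost the call (highest adjusted p = 0.190, limma) while the change stayed between -1.81 and -1.53. At P10 the same gene had been at 27.6 to 34.3 FPKM with overlapping groups.

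In complex II, Sdhd (a membrane anchor) was at 148, 148 and 155 TPM in MDZ and 189, 209 and 193 in RUN MDZ (0.39 ± 0.19, adjusted p = 0.562, limma). Sdhc, the other anchor, was at 250, 262 and 231 against 305, 335 and 283 TPM (0.31 ± 0.26, adjusted p = 0.808, limma). These 2 were the members whose runner libraries all lay above the sedentary ones. Sdhb, the iron-sulfur subunit, overlapped at 195, 229 and 250 against 222, 279 and 258 TPM, and Sdha, the flavoprotein, at 244, 248 and 224 against 263, 166 and 230 TPM. Summed, complex II took 0.0836% to 0.0888% of all TPM in the sedentary libraries and 0.0964% to 0.0989% in the runners. Complex I took 0.735% to 0.756% and 0.505% to 0.605%, and complex IV 0.536% to 0.640% and 0.338% to 0.452%.

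Complexes III to V gave the other large values. Atp5j2 was at 452, 440.3 and 440.1 TPM in MDZ and 103, 160.1 and 63.0 in RUN MDZ (-2.12 ± 0.36, adjusted p = 0.091, limma). Cox7c, a small complex IV subunit, was at 195, 242 and 233 against 113, 66.0 and 74.3 TPM (-1.43 ± 0.34, adjusted p = 0.173, limma). Cox8a was at 515, 621 and 474 against 269, 301 and 252 TPM (-0.96), and Cox4i1 at 1132, 1375 and 1252 against 657, 771 and 761.5 TPM (-0.78 ± 0.16, adjusted p = 0.141, limma). None of these 4 overlapped between the groups. With only the 2 groups in the fit, 6 members passed, all lower: these 4, Ndufa1 and Ndufb6. Of the catalytic genes of complex V, Atp5b was at 1161, 1431 and 1075 against 1042, 1142 and 1116 TPM (-0.14) and Atp5a1 was at 771, 925 and 698 against 766, 751 and 787 TPM (-0.05), both overlapping. Cox7a1 had a negative value of -2.10 from 15.9, 15.3 and 5.55 against 0, 22.2 and 0 TPM. The largest positive values were those of Ndufa4l2 (0.75), Atp5sl (0.53) and Atp5s (0.47), all with overlapping groups.

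**Figure D4:**
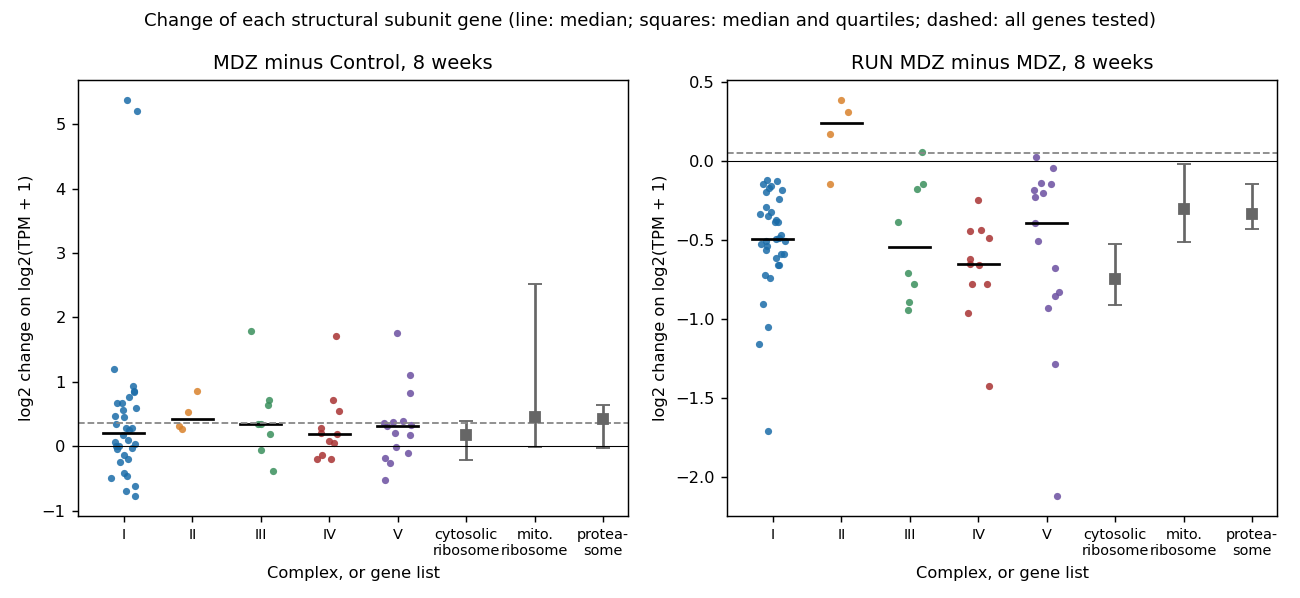
Log2 change of each structural subunit gene (points) by complex, with medians as bars; squares show the median and quartiles of 3 other gene lists and the dashed line the median of all genes tested. In runners against sedentary MDZ mice, all complexes but II lie mostly below 0, as do the cytosolic ribosome, mitochondrial ribosome and proteasome lists.

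Other abundant machineries also had mostly negative values in runners. Cytosolic ribosome genes were negative for 79 of 79 tested (median -0.75), proteasome genes for 35 of 37 (-0.33) and mitochondrial ribosome genes for 58 of 77 (-0.30), with none called. Citric acid cycle genes, the pathway complex II shares, were negative for 10 of 13 (median -0.11), import genes for 18 of 23 (-0.19) and coenzyme Q genes for 12 of 13 (-0.31), while glycolysis had a median of 0.08. Marker sums of some other cell types also differed between these groups. From MDZ 8w to RUN MDZ 8w, summed oligodendrocyte markers went from 187 to 893 TPM up to 2382 to 3575 TPM, endothelial markers (8 genes) from 274 to 325 up to 807 to 1087, and ependymal markers (5 genes) from 58.3 to 86.8 up to 361 to 662. Pericyte and smooth muscle markers (9 genes) went from 871 to 1439 up to 2356 to 3454 TPM. No marker of these lists was at 0 throughout either group. Radial glia and astrocyte markers stayed at 3742 to 4668 and 3716 to 4527 TPM. Sums of microglia, oligodendrocyte precursor, neuroblast and mature neuron markers also overlapped between the groups. The part of these cells in the lower subunit values was not tested.

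Against Control 8w, which shares its libraries with the first 8-week comparison, RUN MDZ 8w had 12 of 79 members called, 9 lower and 3 higher, where 11.3% of all genes were called (9.41% higher, 1.9% lower). The 9 lower genes were Ndufa1 (-1.90), Atp5j2 (-1.80), Cox7c (-1.62), Ndufv3 (-1.12), Cox8a (-1.10), Ndufa13 (-1.09), Cox4i1 (-0.98), Ndufs8 (-0.83) and Ndufb10 (-0.82). The 3 higher were Atp5g3 (1.09), Ndufb6 and Atp5s, the last listed at 0 in Control. Ndufa1 was at 144, 171 and 196 TPM in Control against 49.2, 33.2 and 48.1, and Cox4i1 at 1242, 1587 and 1737 against 657, 771 and 761.5, with no overlap. The call on Ndufa1 (adjusted p = 0.0044, limma), Cox4i1, Ndufa13 and Atp5s held whichever library was left out. The other 8 were lost without at least 4 of the 9 libraries, and none of the 12 held with library quality weights or with only the 2 groups fitted. Without Control 8w replicate 1, 22 members passed, and without RUN MDZ 8w replicate 1 or 3, 7 and 6. Complex II had 4 of 4 positive values (median 0.75): Sdhb 1.02, Sdhc 0.85, Sdhd 0.65 and Sdha 0.17, none called (lowest adjusted p = 0.090, limma, for Sdhd). Medians of the other complexes were -0.16 for I, -0.16 for III, -0.24 for IV and -0.22 for V, beside 0.51 over all genes. Groups did not overlap for 9 members higher and 21 lower (background 24.4% and 10.6%). Over the 1388 genes at the members' level the median was -0.08, with 54 called higher and 113 lower. Without overlap, 213 of these 1388 genes were higher and 346 lower. In the same comparison 19 of 79 cytosolic ribosome genes were lower and none higher, and 6 of 6 oligodendrocyte and 6 of 8 endothelial markers were higher.

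Other mitochondrial lists held a few calls in MDZ 8w against Control 8w, several on genes listed at 0 in Control, beside 4.68% of all genes higher and 0.452% lower. Coenzyme Q synthesis had 4 of 13 higher in MDZ 8w, among them Coq6 (0.05 TPM on average in Control and 57.8 in MDZ) and Pdss1, listed at 0 in Control. Regulators of mitochondrial number had 2 of 18 higher: Ppargc1a, the coactivator that drives mitochondrial biogenesis, and Polg2, a mitochondrial DNA polymerase subunit, both listed at 0 in Control. The mitochondrial ribosome had 4 of 77 higher and 1 lower, Mrpl37 (-0.91). Among complex I assembly factors 1 of 14 was higher, Ndufaf6, also listed at 0 in Control, and no citric acid cycle, carrier or import gene passed. Radial glia and astrocyte markers summed to 2106 to 2414 TPM in Control 8w and 3742 to 4668 in MDZ 8w, and neuroblast markers (7 genes) to 4391 to 4595 and 2541 to 3712. The part of these cells in the member values was not tested.

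With added Egr1 in cultured cells, single subunit genes were called in both directions in the main fit, and the median of each complex was near 0. Egr1 itself was at 330 ± 40.0 TPM in Control culture and 1483 ± 252 in Egr1 culture (SD, n = 3). Of 80 members 14 were called, 5 higher and 9 lower, where 44.2% of 12402 genes were called (15.2% higher, 29% lower). Median changes were 0.00 for complex I, -0.01 for II, -0.01 for III, 0.04 for IV and 0.05 for V. The median was -0.10 over all genes and 0.01 over the 499 genes at the members' level. Among those 499 genes, 87 were called higher and 88 lower. Median-of-ratios scaling moved the all-gene median to 0.01 and the split of all calls from 1888 higher and 3598 lower to 2776 and 2721. Relative to that shift, the 9 lower calls were lost and 10 members passed, all higher.

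The 5 higher genes passed under all 14 alternatives. Sdhc (chr1:171129157-171150640, overlapping Gm46172) was at 448, 446 and 413 TPM in Control and 604, 605 and 571 with Egr1 (0.45 ± 0.06, adjusted p = 0.0003, limma). The other complex II genes had values of 0.02 (Sdha), -0.05 (Sdhb) and -0.09 (Sdhd), none called. Cox6b2 was at 120, 109 and 94.4 against 148, 136 and 142 TPM (0.40 ± 0.09, adjusted p = 0.0056, limma). Cox5a and Cox5b, the subunits that share contact with the catalytic core of complex IV, went from 904, 941 and 859 to 1073, 1111 and 1081 TPM (0.27) and from 405, 430 and 400 to 488, 477 and 471 TPM (0.22). Ndufb9, an accessory subunit of complex I, went from 592, 627 and 591 to 722, 714 and 707 TPM (0.24). For all 5 the groups did not overlap, as for 10 members higher and 15 lower in all (background 18.4% and 37.1%).

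Among the 9 lower, Ndufv3, a small flavoprotein-arm subunit, went from 617, 613 and 572 to 476, 494 and 492 TPM (-0.30 ± 0.05, adjusted p = 0.0022, limma). Ndufs8, an iron-sulfur subunit, went from 387, 375 and 360 to 310, 321 and 331 TPM (-0.22). Uqcrc1 (-0.22), Cox6a1 (-0.20), Ndufa3 (-0.19) and Atp5h (-0.18), each lower in all 3 Egr1 libraries than in any control, lost the call without 3 or 4 of the 6 libraries (highest adjusted p = 0.135, limma). Atp5sl and Atp5s had values of -0.37 each, at 25.9 to 29.3 against 19.4 to 23.3 TPM and 11.2 to 16.4 against 10.1 to 11.1 TPM. The call on Atp5s was lost without 5 of the 6 libraries (highest adjusted p = 0.152, limma). Cox8b was low throughout, at 3.03 to 3.68 against 0 to 2.31 TPM (-1.09, lost without 4 of the 6 libraries). The value of -1.28 for Ndufs5 came from Control culture replicate 1 alone.

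**Figure D5:**
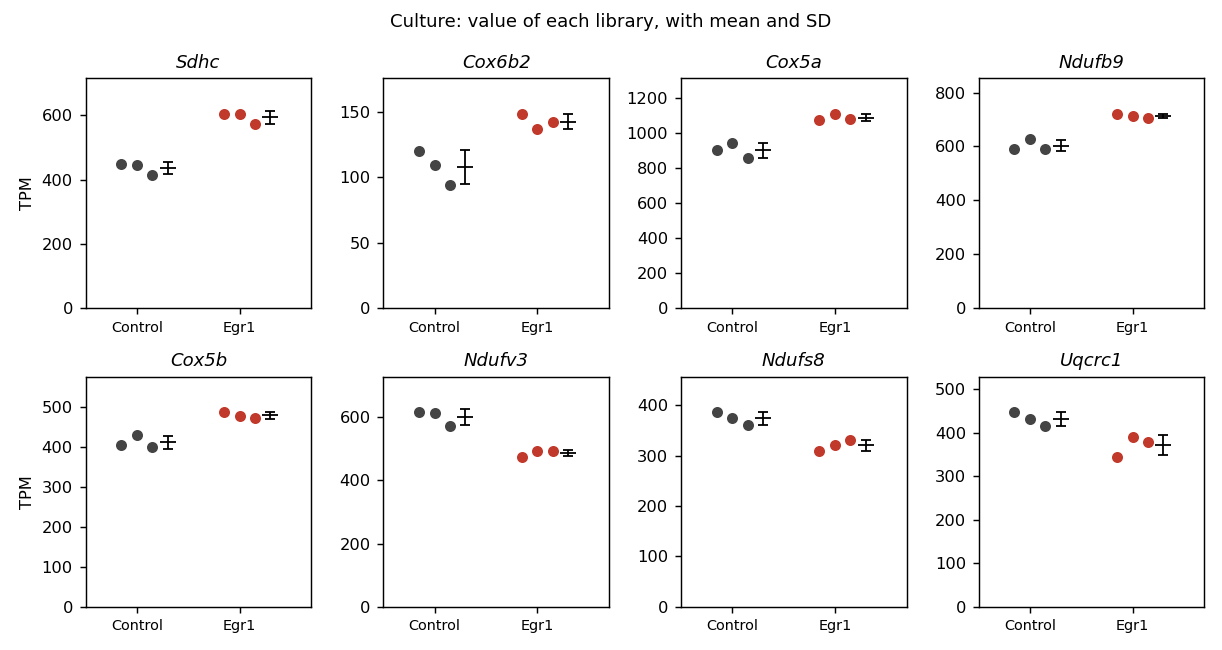
TPM of 8 genes in each culture library (points), with group mean and SD (n = 3). The groups do not overlap for any of the 8: 5 lie higher and 3 lower with added Egr1, and the 3 lower calls were lost under median-of-ratios scaling.

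Several other mitochondrial lists in culture held called genes in both directions. In the citric acid cycle Idh3b was higher (0.47), and Suclg2 (-0.69) and Cs (-0.32) lower. Among carriers the outer membrane channel gene Vdac2 (0.64) and Etfb (0.33) were higher, and Etfdh (-0.28) and Slc25a5 (-0.24) lower. Of the regulators of mitochondrial number, the mitochondrial helicase gene Peo1 (0.82) and the nuclear receptor gene Esrra (0.54) were higher. Lower in that list were Polg (-0.34) and Pprc1 (-0.33). Complex I assembly factors had 2 of 14 higher and none lower, those of complex IV 2 of 20 higher and 3 lower, and the mitochondrial ribosome 7 of 77 higher and 17 lower, beside 15.2% of all genes higher and 29% lower. In glycolysis Ldhb was higher (1.06) and Pfkm lower (-0.46). Neuroblast markers summed to 36.3 to 43.4 TPM in Control culture (Dcx at 0 throughout) and 171 to 208 with Egr1. Calb2 alone averaged 1.13 and 143.5 TPM of these sums. Radial glia and astrocyte markers summed to 3230 to 3796 and 2470 to 2880 TPM, but genes of this list were called in both directions. Fabp7 averaged 2728 TPM in Control culture and 1872 with Egr1, and Slc1a3 334.5 and 197. Nes went the other way, at 189 and 378 TPM, as did Gfap at 1.165 and 5.73. Oligodendrocyte precursor markers (5 genes, Sox10 at 0 throughout Control culture) summed to 1643 to 1737 TPM in Control culture and 829 to 964 with Egr1. Of these, Olig1 averaged 1099 and 497 TPM, while Pdgfra rose from 1.695 to 2.86. Oligodendrocyte markers summed to 95.4 to 105 and 197 to 205 TPM, with Cnp at 97.6 and 192.5 on average. The part of these cell types in the subunit values was not tested.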

How the data were processed

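The authors deposited 1 value per gene and library, FPKM for P10 and TPM for the 8-week and culture libraries. These units were read from the values, since the labels do not name them. The submitters' processing notes give the build mm10 and list 3 tools, TopHat, Bowtie2 and DESeq2, but not what each did or its version. No counts were used. Relative depth, read from the low values, was 0.571 to 1 at P10 and 0.899 to 1 in culture, and is unknown at 8 weeks, so no counting interval is given.

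Values were fitted as log2(value + 1) with limma 3.58.1 (trend, two-sided, R 4.3.3) on genes with a mean of at least 1, all groups of an age together. P-values were adjusted by Benjamini-Hochberg over all genes tested. Fold changes on this scale understate changes of low genes. Of the 84 members 79 were tested at each age and 80 in culture. Scripts were tested on simulated data. Genes were named if they passed, had 1 of the 3 largest changes per direction, were catalytic or paired forms, or led or closed their complex. The members and lists were chosen with earlier results of these data known. Chromatin samples were not analysed here. Alternatives were other pseudocounts, filters, scalings, weights, a replicate block, and each library left out.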

Additional observations from a re-analysis of the deposited data

How the results depend on the processing

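No called gene changed direction. Complex medians near 0 did change sign at P10 and in culture (complexes I, III, IV and V at P10, all 5 in culture). At 8 weeks complex IV in MDZ 8w against Control 8w went from 0.19 to -0.05 without Control 8w replicate 1, and complex III in RUN MDZ 8w against Control 8w from -0.16 to 0.02 without RUN MDZ 8w replicate 3. At P10, 1 member passed with a filter at a mean of 5, with quantile normalization or with library quality weights, and 0 to 1 with each library left out. Over all genes 2 passed with a pseudocount of 5, 4 with that filter, 0 with median-of-ratios scaling, 4 with quantile normalization and 5 with weights, and 0 to 101 with a library left out (101 without Control P10 replicate 2). For MDZ 8w against Control 8w, 0 members passed with weights and 9 with Control replicates 2 and 3 kept apart, and 3 to 12 with a library left out. All genes called were 1410 with a pseudocount of 0.1, 461 with 5, 152 with quantile normalization, 19 with weights and 1787 with the 2 replicates kept apart, and 207 to 2928 with a library left out. The median of complex I was then 0.0047 to 0.26 and of complex V 0.037 to 0.35. The highest counts and lowest medians came without Control 8w replicate 1.

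For RUN MDZ 8w against MDZ 8w, 11 members passed with weights, 2 with the replicates kept apart and 6 with only the 2 groups fitted, all lower, and 0 to 5 with a library left out. All genes called were 432, 122 and 360, and 0 to 275. The complex II median was 0.33 with quantile normalization. For RUN MDZ 8w against Control 8w, 3 members passed with quantile normalization, 18 with the replicates kept apart, 0 with weights, 0 with only the 2 groups, and 4 to 22 with a library left out. All genes called were 406, 2904, 0 and 0, and 910 to 3952, and the medians were -0.68 to -0.11 for complex IV and -0.41 to -0.20 for complex V. In culture 24 members passed with weights and 9 to 17 with a library left out, and median-of-ratios scaling gave medians of 0.11 for complex I, 0.098 for II and 0.17 for V. The cause of these differences was not tested.

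Groups share replicate numbers, but nothing says that a number marks a shared animal or day, and the deviations of same-numbered samples correlated between -0.0771 and 0.133. With the replicate number as a block, 0 genes passed at P10, 1227 in MDZ 8w against Control 8w (5 members), 14 in RUN MDZ 8w against MDZ 8w (0 members), and 2595 in RUN MDZ 8w against Control 8w (17 members). In culture 13 members passed with the block. Only the form of the 8-week block fit, with Control replicates 2 and 3 kept apart, was chosen after seeing the data.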
